A study of Drosophila melanogaster with 22 samples.

Results

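The comparison described here set neurons against glia from brains of wandering Drosophila melanogaster larvae, with 2 RNA-seq libraries of each cell type out of 22 libraries in the series. The neuron libraries held 120 and 74 cells and the glia libraries 52 and 47 cells. Cells carrying GFP were picked with a robotic sorter after 30 brains per preparation had been digested with proteases, and their total RNA was amplified before sequencing. Larvae had been synchronised at hatching and raised at 25 °C. The labels name no genotype, driver of the GFP label or brain region, so neurons and glia are what the labels call them, with no subtype. A library is a pool of cells from many larvae, and nothing says that the 2 libraries of a cell type came from separate preparations, so p-values measure the spread between pools and no more. Another 3 libraries, of pooled neuroblasts (neural stem cells) taken 50 h after larval hatching, entered the model to help estimate that spread. The spread behind the p-values is therefore in part that of neuroblast pools.

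Neurons and glia divide the work of the fly brain. Neurons fire action potentials and release transmitter or peptide, which takes ion channels, vesicle proteins, receptors and surface proteins that sort out which cells connect. Glia wrap cell bodies and fibres, form the blood-brain barrier with septate junctions, clear transmitter and debris, build the basement membrane of the brain and feed neurons. Most fly glia depend on the homeobox factor repo, the usual marker of the class.

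All genes of the count table were examined, 15339 entries once the spike-in, summary and unnamed rows had been set aside. Reads assigned to genes numbered 4364364 and 7130312 in neurons, against 6476084 and 7215312 in glia. A read was seen for 9376 and 8958 genes in the neuron libraries, against 9935 and 9854 genes in the glia libraries. Synthetic ERCC spike-in RNAs took 2.12 and 3.27% of assigned reads in neurons, against 9.75 and 8.19% in glia. Levels are given as CPM, counts scaled to a common library size with TMM factors, and log2 changes as neurons over glia with their standard error.

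Of all entries 9855 had enough reads to test, and 923 were higher in neurons (9.37% of those tested) and 1061 lower (10.8%) at an adjusted p below 0.05 by edgeR's quasi-likelihood test. The median log2 change of all tested genes was -0.23. These shares and this median are the background for every count of a gene group below. Called changes had a median size of 6.13 on the log2 scale among genes higher in neurons and 5.41 among genes lower in neurons. Of the called genes 175 had reads in neurons and none in glia, and 287 had reads in glia and none in neurons. No called gene overlapped between the cell types, and 3373 of the 7871 genes that were not called did not overlap either.

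**Figure D1:**
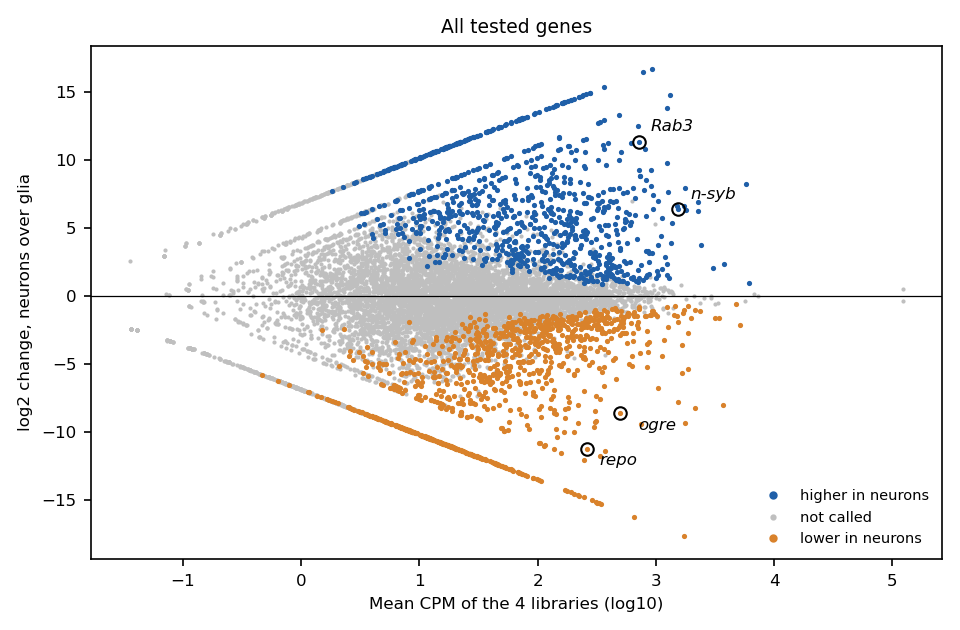
Log2 change of each tested gene, neurons over glia, against the log10 of its mean CPM over the 4 libraries. The 923 genes higher in neurons are blue, the 1061 lower in neurons orange and the rest grey, with n-syb, Rab3, repo and ogre ringed. The straight upper and lower edges are genes with no reads in 1 of the cell types, whose fitted change follows from the reads of the other cell type and is no bound.

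How the calls divide depends on the scale. With libraries scaled by spike-in reads per cell in place of TMM, the median change was 1.52, and 2789 genes were higher in neurons and 465 lower, so that 85.7% of the calls were higher against 46.5% on the TMM scale. The changes below are relative to the bulk of the RNA in each pool. In bulk pools, fewer cells of a type that makes an mRNA and less of that mRNA in each cell cannot be told apart.

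The 4 markers went with the labels. n-syb, the vesicle SNARE of neurons, had 3257 and 2833 CPM in neurons, against 24.7 and 49.3 CPM in glia (log2 change 6.36 ± 0.42, adjusted p = 6.35e-05). Rab3, a GTPase of synaptic vesicles, had 1269 and 1579.8 CPM in neurons, against 0.33 and 0.731 CPM in glia (log2 change 11.32 ± 0.55, adjusted p = 1.38e-05). repo had 0.552 and 0 CPM in neurons, against 543 and 506 CPM in glia, and since neurons held 2 reads in all, glia over neurons came to 2782-fold (95% counting interval 769.7 to 22974). ogre, a gap junction innexin of glia, had 3.04 and 2.14 CPM in neurons, against 1059 and 925 CPM in glia (log2 change -8.60 ± 0.40, adjusted p = 1.06e-05). All 4 were far apart between the cell types. Of 12 neuron markers 10 were higher in neurons, and of 12 glia markers 9 were lower in neurons, or 1 higher and 6 lower with spike-in scaling. brp, the active zone scaffold, was not called, with 1837 and 2029 CPM in neurons, against 97.1 and 0.877 CPM in glia (adjusted p = 0.0513), its glia reads lying mostly in replicate 1. Rbp9, a relative of elav, had 10.8 and 149.7 CPM in neurons, against 48.5 and 35.2 CPM in glia (adjusted p = 0.555), with the glia values between the neuron values. Among the glia markers CG1732 (the GABA transporter Gat), nrv2 and Gli did not pass. CG1732 had 46.1 and 52.04 CPM in neurons, against 183 and 70.9 CPM in glia, and nrv2, a sodium pump beta subunit, had 102 and 96.1 CPM in neurons, against 213 and 68.5 CPM in glia. Added over each list, the neuron markers came to 23581 and 23640.0 CPM in neurons, against 515 and 324 CPM in glia. The glia markers came to 485 and 488 CPM in neurons, against 4750.5 and 3997 CPM in glia. Some reads of each marker list were thus present in pools of the other cell type. In neurons they included nrv2 and CG1732, whereas repo and ogre were low there. Whether such reads came from cells of the other type or from the pool's own cells was not tested. Their part in the results below was not tested either.

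**Figure D2:**
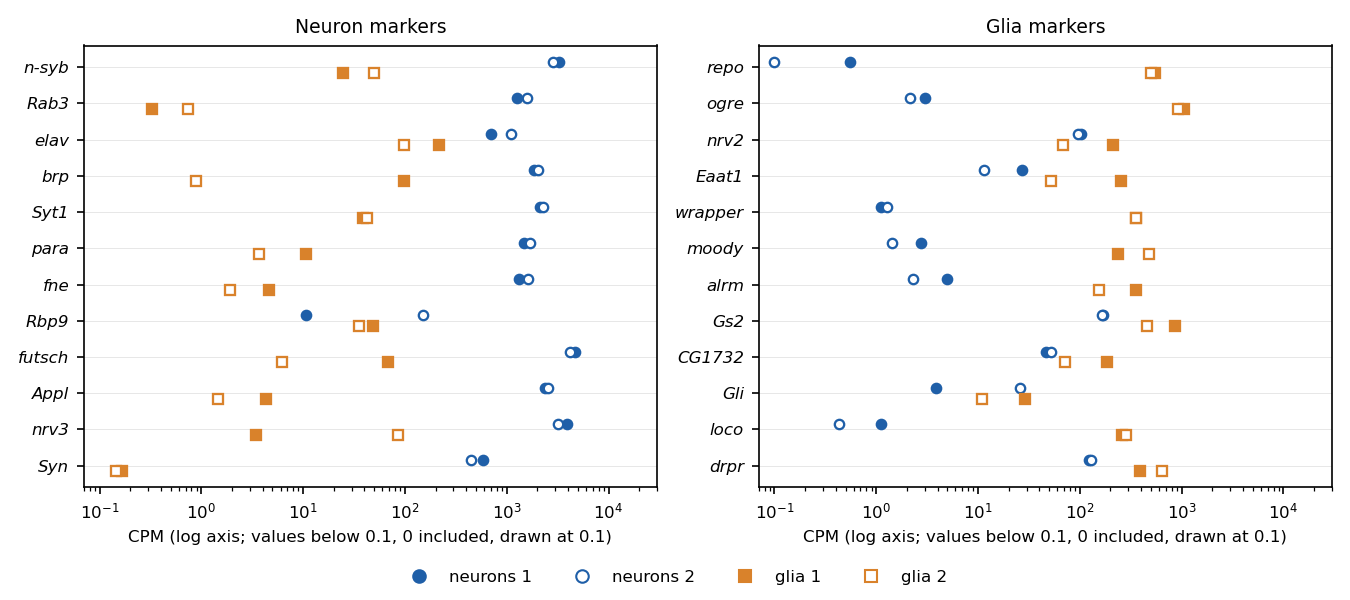
CPM of the 12 neuron markers and the 12 glia markers in each library, on a log axis on which values below 0.1 are drawn at 0.1. Circles are the neuron libraries and squares the glia libraries, filled for replicate 1 and open for replicate 2. n-syb, Rab3, repo and ogre separate the cell types, whereas Rbp9, nrv2 and Gli overlap.

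Markers of other cells varied by list. The 6 fat body genes summed to 0.276 and 0 CPM in neurons, against 15.2 and 5.56 CPM in glia, with Fbp2 and Lsp2 at 0 in all 4 libraries. The 8 blood cell genes summed to 106 and 58.5 CPM in neurons, against 73.5 and 31.4 CPM in glia, led by proPO45 in neuron replicate 1 and by srp in glia replicate 1. The 9 muscle genes summed to 15.2 and 2.14 CPM in neurons, against 773 and 701 CPM in glia, and sls, described further on, made up most of the glia sums. The 7 ring gland genes summed to 1102 and 3.99 CPM in neurons, against 15.2 and 52.5 CPM in glia, and the neuron sum was nearly all the peptide gene Akh in replicate 1. The 7 photoreceptor genes summed to 157 and 513 CPM in neurons, against 271 and 100.5 CPM in glia, overlapping between cell types, with norpA, a phospholipase C, the most abundant of them in each library and the opsin genes Rh5 and Rh6 at 0 in all 4. The 6 tracheal genes summed to 74.02 and 149.7 CPM in neurons, against 139.5 and 68.6 CPM in glia, most of it the factor trh in neurons and the deacetylase gene serp in glia replicate 1. The 10 neuroblast markers summed to 20.99 and 12.6 CPM in neurons, against 537 and 186 CPM in glia, so both glia sums lay above both neuron sums. Of the 10, 6 were lower in neurons (60%, against 10.8% of all tested genes) and none higher. The number lower was 4 with spike-in scaling and 1 in a fit of neurons and glia alone. Glia replicate 1 stood above the rest: dpn, a neuroblast repressor, reached 140.8 CPM there, against 8.48 CPM in glia replicate 2, and mira, which carries fate determinants, 156.3 CPM, against 9.95 CPM. In pooled neuroblasts dpn stood at 454 ± 33.05 CPM (mean ± SD, n = 3). Of 30 cell cycle genes 14 were lower in neurons and none higher, a count that was 9 without neuron replicate 2 or without glia replicate 1 and 20 without neuron replicate 1, where 1 was also higher. The 14 made up 46.7% of the 30, against 10.8% of all tested genes. Scaling by spike-in reads gave 3 higher and 7 lower. None was called in a fit of neurons and glia alone.

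Among genes averaging at least 50 CPM in neurons, the 12 with the widest fitted gap to glia were read mostly in neurons alone. The active zone gene Rim, the potassium channel Shab and its regulator qvr were at 0 in glia. So were CG42750, CG31760 and CG43347. amon, a prohormone convertase that cuts peptide precursors, had 304 and 637 CPM in neurons, against 0 CPM in both glia libraries, at least 2252-fold higher. 7B2, its partner, had 586 and 446 CPM in neurons, against 0 CPM in both glia libraries, at least 2123-fold higher. The bounds set glia at a floor of 3 reads over both libraries. Syt4, a synaptotagmin of secretory vesicles, had 349.7 and 545 CPM in neurons, against 0 CPM in both glia libraries, at least 2057-fold higher. klg, an adhesion protein with immunoglobulin domains, had 366 and 528 CPM in neurons, against 0 CPM in both glia libraries, at least 2034-fold higher. Akh and Fmrf complete the 12 and are described with the peptides.

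In the other direction, all 12 of the genes with the widest fitted gaps had no reads in neurons. The ranking favours such genes in both directions, since a side with no reads gives the widest fitted changes. ImpE1, an ecdysone-inducible gene with lipoprotein-receptor repeats (FBgn0001253, chromosome 3L, 8365505 to 8373250 in dm3), had 0 CPM in both neuron libraries, against 3653 and 3269 CPM in glia, at least 12228-fold lower in neurons (adjusted p = 8.38e-06). nimA, a relative of the nimrod engulfment receptors, had 0 CPM in both neuron libraries, against 1333 and 1291 CPM in glia, at least 4647-fold lower. The glia libraries were close for both genes. Idgf4, a chitinase-like secreted growth factor, had 0 CPM in both neuron libraries, against 436 and 930.5 CPM in glia, and its relative Idgf3 had 0 CPM in both neuron libraries, against 595 and 658 CPM in glia. Tep2, a thioester protein related to complement, had 0 CPM in both neuron libraries, against 487 and 836 CPM in glia. The other 7 were bbg, a PDZ-domain protein, zormin, a titin-related protein, h, the hairy repressor, Mal-A5, a maltase, E(spl)mbeta-HLH, a Notch target, and CG9686 and CG3902. None of the 7 had a read in neurons, and their bounds ran from 1333-fold lower for CG3902 to 2279-fold lower for bbg.

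The called genes with the most reads were different ones. IA-2, a phosphatase-like protein of dense core vesicles, led in neurons with 8991 and 14095 CPM in neurons, against 71.2 and 6.87 CPM in glia (log2 change 8.21 ± 1.04, adjusted p = 0.00124). After it came Atpalpha, 14-3-3zeta, the calmodulin gene Cam and the aldolase gene Ald. In glia Act5C, the cytoplasmic actin, led with 1839 and 1967 CPM in neurons, against 8577 and 8186 CPM in glia (log2 change -2.14 ± 0.18, adjusted p = 1.49e-04). Obp44a, an odorant-binding protein, followed with 21.8 and 36.2 CPM in neurons, against 4672 and 9885 CPM in glia (log2 change -7.96 ± 0.49, adjusted p = 4.74e-05). Ef1alpha48D, br and shot came next, with shot at 1247 and 1845 CPM in neurons, against 3860.2 and 5656 CPM in glia, a log2 change of -1.62 ± 0.28 that turned to 0.077 with spike-in scaling. These 3 were also abundant in neurons, whereas Obp44a was not. The smallest called difference of all was that of Ef1alpha48D, a translation elongation factor, with 3816 and 3872 CPM in neurons, against 5854 and 5646 CPM in glia (log2 change -0.58 ± 0.16, adjusted p = 0.0361), a change that turned to 1.20 with spike-in scaling. Its call was lost when any 1 of the 4 libraries was left out (adjusted p = 0.0763 to 0.105).

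**Figure D3:**
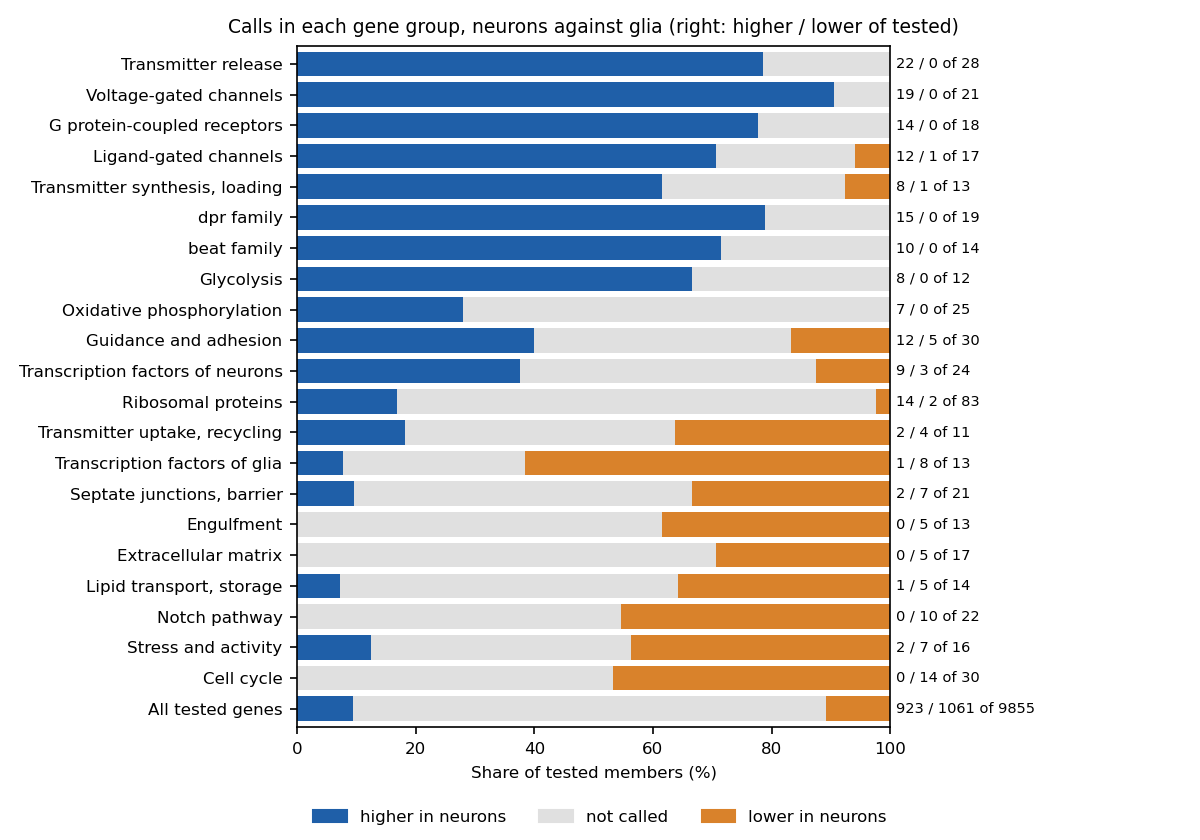
Share of the tested members of 21 gene groups, and of all tested genes, that were higher in neurons (blue), not called (grey) or lower in neurons (orange), with the numbers higher and lower out of those tested at the right. Release, receptor and channel genes hold mostly blue, and the Notch, cell cycle and glial factor groups mostly grey and orange.

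Genes of transmitter release were higher in neurons in 22 of 28 cases (78.6%, against 9.37% of all tested genes) and lower in none. Their median log2 change was 5.15. Syt7, a synaptotagmin of slow release, had 303 and 243 CPM in neurons, against 0.495 and 0 CPM in glia, and its 3 glia reads gave a ratio of 1132-fold (95% counting interval 387 to 5492). Sytbeta, another synaptotagmin, had 188 and 106 CPM in neurons, against 0.989 and 1.17 CPM in glia (log2 change 7.07 ± 0.94, adjusted p = 0.00146). Rbp, the RIM-binding protein of active zones, had 688 and 946 CPM in neurons, against 11.2 and 1.9 CPM in glia (log2 change 6.96 ± 0.90, adjusted p = 0.00135). These 3 were nearly absent from glia. Caps, which primes dense core vesicles, had 685 and 635 CPM in neurons, against 16.5 and 27.9 CPM in glia (log2 change 4.89 ± 0.42, adjusted p = 1.68e-04). endoA, endophilin, had 590.5 and 588 CPM in neurons, against 96.8 and 48.4 CPM in glia (log2 change 3.02 ± 0.43, adjusted p = 0.00204). shi, the dynamin that pinches off vesicles, had 644 and 580.2 CPM in neurons, against 229 and 196 CPM in glia (log2 change 1.52 ± 0.29, adjusted p = 0.00785). The endocytic genes thus kept clear levels in glia. Syx1A, the target-membrane SNARE, had 823 and 1163 CPM in neurons, against 1069 and 671 CPM in glia (adjusted p = 0.73), and Rop, its Sec1 partner, had 179 and 93.7 CPM in neurons, against 112 and 94.9 CPM in glia (adjusted p = 0.629). Both overlapped between the cell types, as did Rph and Liprin-alpha. cac, the calcium channel of the active zone, had 799 and 984 CPM in neurons, against 73.7 and 1.32 CPM in glia (adjusted p = 0.0435). Its call was lost without neuron replicate 1 or 2 (adjusted p = 0.0769 and 0.11).

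Genes of transmitter synthesis and vesicle loading were higher in neurons in 8 of 13 cases (61.5%, against 9.37% of all tested genes). Vmat, which loads amines, had 4032 and 935 CPM in neurons, against 0.33 and 0 CPM in glia, and its 2 glia reads gave a ratio of 12831-fold (95% counting interval 3552 to 105959). VGlut, the glutamate loader, had 1141 and 1312 CPM in neurons, against 0.989 and 0 CPM in glia (log2 change 11.28 ± 2.004, adjusted p = 0.00616). Gad1, which makes GABA, had 641 and 765 CPM in neurons, against 15.3 and 3.51 CPM in glia (log2 change 6.22 ± 0.89, adjusted p = 0.00222). VAChT, the acetylcholine loader, had 480.0 and 905 CPM in neurons, against 2.97 and 7.75 CPM in glia (log2 change 7.004 ± 0.94, adjusted p = 0.00163). Per length, on the deposited TPM scale, levels in neurons were 399.9 and 613 TPM for VGlut, 377 and 599.5 TPM for Gad1 and 145 and 365 TPM for VAChT. VGlut and Gad1 differed by less than their spread between libraries, and VAChT was the lowest of the 3 in each library. Tdc2, which starts octopamine synthesis in the brain, had 116 and 7.84 CPM in neurons, against 0 CPM in both glia libraries, at least 192-fold higher. Tbh, which completes it, had 864 and 99.9 CPM in neurons, against 27.04 and 7.9 CPM in glia (log2 change 4.79 ± 1.41, adjusted p = 0.0437). Both were high in neuron replicate 1, and without it their calls were lost (adjusted p = 0.0568 and 0.235), as was that of Tbh without glia replicate 1 or 2 (0.0933 and 0.161). The group had 5 genes higher without neuron replicate 1 or without glia replicate 1. Hdc, which makes histamine, was the member lower in neurons, with 0.276 and 0 CPM in neurons, against 18.8 and 8.34 CPM in glia (adjusted p = 0.0143). Its single neuron read gave a ratio of glia over neurons of 141-fold (95% counting interval 24.96 to 5599.7).

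Transmitter clearance was split between related genes. Of the genes tested, 18.2% were higher in neurons (against 9.37% of all tested genes) and 36.4% lower (against 10.8%). Eaat1, the glutamate transporter of astrocyte-like glia, had 27.1 and 11.4 CPM in neurons, against 256 and 51.6 CPM in glia (log2 change -3.005 ± 0.77, adjusted p = 0.0266). Its relative Eaat2 had 224 and 415 CPM in neurons, against 0 CPM in both glia libraries, at least 1506-fold higher in neurons (adjusted p = 6.85e-04). Both neuron libraries held Eaat2 and neither glia library did. Gs2, a glutamine synthetase, had 170.4 and 166 CPM in neurons, against 862 and 455 CPM in glia (log2 change -1.97 ± 0.42, adjusted p = 0.0131). Gs1, the mitochondrial form, had 108 and 229 CPM in neurons, against 3.46 and 4.97 CPM in glia (log2 change 5.31 ± 1.03, adjusted p = 0.00918). Per length Gs2 was nevertheless present in neurons at 181 and 235 TPM, beside 96.9 and 274 TPM for Gs1. e (ebony), which couples beta-alanine to amines, had 0 and 4.13 CPM in neurons, against 65.96 and 152 CPM in glia (log2 change -5.64 ± 1.48, adjusted p = 0.0293). gb (genderblind), a glial transporter, had 47.8 and 36.2 CPM in neurons, against 174 and 155 CPM in glia (log2 change -1.97 ± 0.48, adjusted p = 0.0225). Of 11 genes tested 2 were higher in neurons and 4 lower, and 2 were lower without neuron replicate 2, 1 in a fit without neuroblasts and none with spike-in scaling. The calls of Eaat1 and Gs2 were lost without neuron replicate 2 (adjusted p = 0.123 and 0.0582) or glia replicate 1 (0.114 and 0.0544), that of gb without neuron replicate 2 (0.0643) and that of e without glia replicate 2 (0.092).

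Of 17 ligand-gated channels 12 were higher in neurons (70.6%, against 9.37% of all tested genes) and 1 lower (5.88%, against 10.8%). Their median log2 change was 6.12. Spike-in scaling gave 15 higher and none lower. The nicotinic subunits form the main excitatory receptors of the fly brain. nAcRalpha-34E had 1310.3 and 1547 CPM in neurons, against 2.47 and 2.19 CPM in glia (log2 change 9.25 ± 0.49, adjusted p = 1.98e-05). nAcRbeta-64B had 622 and 639 CPM in neurons, against 8.41 and 2.63 CPM in glia (log2 change 6.84 ± 0.98, adjusted p = 0.00217). gfA, listed as nAcRalpha-18C, had 277 and 400.0 CPM in neurons, against 0 CPM in both glia libraries, at least 1539.9-fold higher. Per length nAcRbeta-64B had 453 and 620.2 TPM in neurons, above the 303 and 476 TPM of nAcRalpha-34E in each library. nAcRbeta-21C was the member lower in neurons, with 0 CPM in both neuron libraries, against 11.7 and 49 CPM in glia, at least 112-fold lower (adjusted p = 0.0485), and its call was lost when any 1 of the 4 libraries was left out (adjusted p = 0.0704 to 0.157). Among inhibitory receptors GluClalpha, the glutamate-gated chloride channel, had 787 and 993 CPM in neurons, against 8.9 and 53.2 CPM in glia (log2 change 4.84 ± 0.76, adjusted p = 0.00345). Lcch3, a GABA receptor subunit, had 73.2 and 111 CPM in neurons, against 0.989 and 1.61 CPM in glia (log2 change 6.12 ± 1.03, adjusted p = 0.00459). Nmdar2 had 493 and 490.0 CPM in neurons, against 3.63 and 5.12 CPM in glia (log2 change 6.80 ± 0.84, adjusted p = 0.0011). Its obligate partner Nmdar1 had 192 and 123 CPM in neurons, against 10.1 and 0.146 CPM in glia and did not pass (adjusted p = 0.0644), with most of its glia reads in replicate 1.

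Of 18 G protein-coupled receptors 14 were higher in neurons (77.8%, against 9.37% of all tested genes) and none lower. Their median log2 change was 6.97, or 6.71 with genes that had no glia reads set at their bounds. 5-HT1A, a serotonin receptor, had 359 and 309 CPM in neurons, against 0 CPM in both glia libraries, at least 1402-fold higher. Oamb, an octopamine receptor, had 131 and 252 CPM in neurons, against 0 and 0.146 CPM in glia, and its glia read gave a ratio of 2721-fold (95% counting interval 488 to 107523). mGluRA, the metabotropic glutamate receptor, had 379.5 and 227 CPM in neurons, against 2.47 and 1.02 CPM in glia (log2 change 7.43 ± 0.74, adjusted p = 3.54e-04). All 3 were at or near 0 in glia. mAcR-60C, a muscarinic receptor, had 338 and 404 CPM in neurons, against 2.31 and 0 CPM in glia (log2 change 8.34 ± 1.35, adjusted p = 0.00393). DopR, a dopamine receptor, had 410.4 and 577 CPM in neurons, against 9.4 and 32.6 CPM in glia (log2 change 4.55 ± 0.81, adjusted p = 0.00631), with the highest mean CPM in glia of the called receptors. D2R, 5-HT7, Octbeta2R and Octbeta3R were not called, although each had more CPM in both neuron libraries than in either glia library, and their adjusted p ran from 0.0841 for D2R to 0.168 for Octbeta3R.

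Of 21 voltage-gated channel genes 19 were higher in neurons (90.5%, against 9.37% of all tested genes) and none lower. Their median log2 change was 6.36. para, the sodium channel of action potentials, had 1485 and 1679.6 CPM in neurons, against 10.7 and 3.66 CPM in glia (log2 change 7.78 ± 0.63, adjusted p = 1.49e-04). tipE, its auxiliary subunit, had 93.9 and 108 CPM in neurons, against 2.31 and 0.146 CPM in glia (log2 change 6.36 ± 1.27, adjusted p = 0.0101). Ca-alpha1T, a low-threshold calcium channel, had 618 and 906 CPM in neurons, against 1.65 and 0.292 CPM in glia (log2 change 9.62 ± 0.91, adjusted p = 2.84e-04). These 3 were low in glia, with fewer CPM in replicate 2 than in replicate 1. stj, a calcium channel alpha2-delta subunit, had 373 and 700.4 CPM in neurons, against 6.43 and 0.585 CPM in glia (log2 change 7.26 ± 1.09, adjusted p = 0.0028). Shal, an A-type potassium channel, had 168 and 153 CPM in neurons, against 1.32 and 0 CPM in glia (log2 change 7.92 ± 1.40, adjusted p = 0.00606). slo, the large-conductance calcium-activated channel, had 897 and 1226 CPM in neurons, against 33.97 and 15.7 CPM in glia (log2 change 5.42 ± 0.52, adjusted p = 3.11e-04). The potassium channel genes differed in how much glia retained. Sh (Shaker) had 1587 and 2163 CPM in neurons, against 44.2 and 0 CPM in glia (log2 change 6.41 ± 1.81, adjusted p = 0.038) and lost its call without neuron replicate 1 or 2 (adjusted p = 0.0647 and 0.0917). Ih, the pacemaker channel, had 787 and 567 CPM in neurons, against 109 and 132 CPM in glia (log2 change 2.49 ± 0.46, adjusted p = 0.00693). NaCP60E, of the sodium channel family, had 746 and 656 CPM in neurons, against 444 and 343 CPM in glia (adjusted p = 0.0712), and KCNQ had 59.9 and 24.9 CPM in neurons, against 44.5 and 23.3 CPM in glia (adjusted p = 0.814). KCNQ overlapped between the cell types, and NaCP60E did not.

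Several peptide genes came from 1 of the neuron libraries. Akh, the adipokinetic hormone, had 1096 and 0.855 CPM in neurons, against 0 CPM in both glia libraries. Fmrf, the FMRFamide precursor, had 2.76 and 5215 CPM in neurons, against 0 and 0.146 CPM in glia. Dh44, a diuretic hormone, had 2465 and 10.4 CPM in neurons, against 17.5 and 2.34 CPM in glia. Akh and Dh44 came almost wholly from neuron replicate 1 and Fmrf from neuron replicate 2, as did Pdf, the clock peptide, with 0 and 130.4 CPM in neurons, against 0 CPM in both glia libraries. Without the library that carried them, the calls of Akh and Fmrf were lost (adjusted p = 0.166 and 0.314), as they were without glia replicate 1 (0.108 and 0.107) or 2 (0.11 and 0.103). Akh is known from neurosecretory cells attached to the ring gland, and whether such cells were in the neuron pools was not tested. The other 6 ring gland genes listed, whose levels do not settle this, had at most 2.76 CPM in a neuron library. Of these, sro had 45.3 CPM in glia replicate 2. Of 17 tested peptide genes 5 were higher in neurons (29.4%, against 9.37% of all tested genes) and 1 lower, or 10 higher and none lower with spike-in scaling. Among them sNPF, short neuropeptide F, had 401 and 66.7 CPM in neurons, against 0 CPM in both glia libraries, at least 776-fold higher. Dh31 had 148 and 149.6 CPM in neurons, against 0 CPM in both glia libraries, at least 640.1-fold higher. Nplp1 had 97.5 and 417 CPM in neurons, against 3.46 and 2.05 CPM in glia (log2 change 6.54 ± 0.92, adjusted p = 0.00203). These 3 were present in both neuron libraries.

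Other peptide genes had reads in glia. itp, the ion transport peptide, had 2066 and 3.14 CPM in neurons, against 572 and 1378 CPM in glia, so that both glia libraries lay between the neuron libraries. Its log2 change was 0.09 ± 1.58 with both neuron libraries and -8.19 (adjusted p = 0.00156) without neuron replicate 1. Ptth, the prothoracicotropic hormone of a few neurosecretory cells, had 0.276 and 0 CPM in neurons, against 1.98 and 51.2 CPM in glia, and its neuron read gave a ratio of glia over neurons of 298-fold (95% counting interval 53.2 to 11818) (adjusted p = 0.0482). That call was lost without glia replicate 2 (adjusted p = 0.288), neuron replicate 1 (0.0773) or neuron replicate 2 (0.159). Enzymes that process peptides were present in both neuron libraries. Besides amon and 7B2, Pal2, a peptide-amidating lyase, had 915 and 1029 CPM in neurons, against 7.59 and 0.439 CPM in glia (log2 change 7.93 ± 1.08, adjusted p = 0.00179). Phm, the amidating monooxygenase, had 110.5 and 153 CPM in neurons, against 125 and 52.5 CPM in glia, overlapping between cell types.

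**Figure D4:**
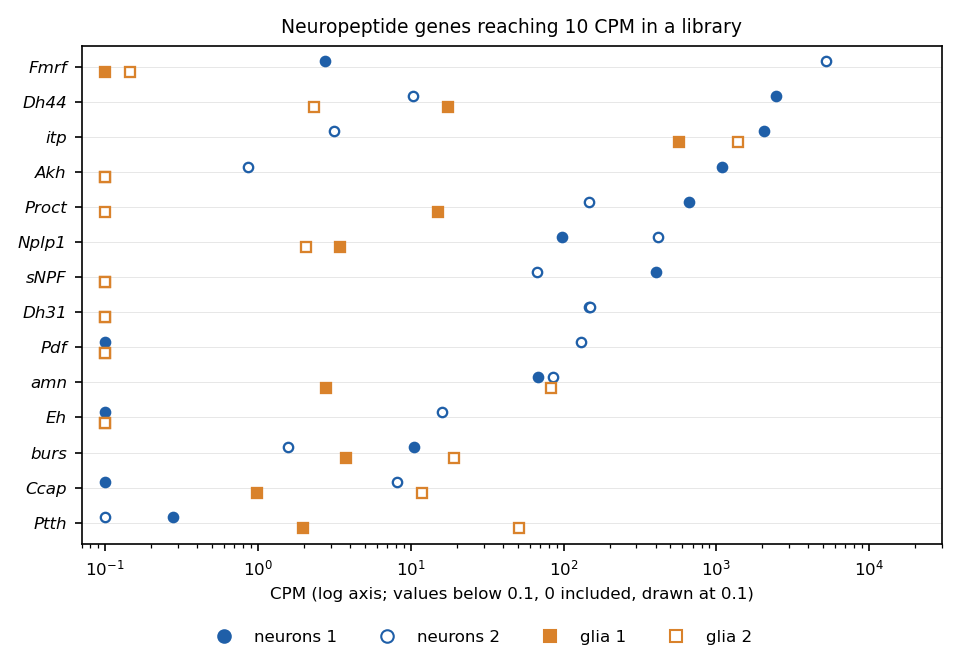
CPM of the neuropeptide genes that reached 10 CPM in at least 1 library, on a log axis on which values below 0.1 are drawn at 0.1, with circles for neurons and squares for glia, filled for replicate 1 and open for replicate 2. Fmrf, Dh44, Akh and Pdf are high in 1 neuron library and low or at 0 in the other, whereas sNPF, Dh31 and Nplp1 are present in both.

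Surface proteins thought to sort synaptic partners were mostly on the neuron side. The dpr family, immunoglobulin proteins that pair with DIP partners, had 15 of 19 members higher in neurons (78.95%, against 9.37% of all tested genes) and none lower. Its median log2 change was 6.01. dpr11 had 213 and 441 CPM in neurons, against 0 CPM in both glia libraries, at least 1564-fold higher. dpr12 had 399.9 and 353 CPM in neurons, against 1.81 and 0.146 CPM in glia (log2 change 8.59 ± 0.98, adjusted p = 7.17e-04). The beat family, whose founder loosens motor axons from their bundle, had 10 of 14 higher (71.4%), none lower and a median of 7.83, or 7.26 at the bounds. beat-VI had 184 and 109.6 CPM in neurons, against 0 CPM in both glia libraries, at least 580.3-fold higher. beat-IIa had 67.4 and 128 CPM in neurons, against 0 CPM in both glia libraries, at least 461-fold higher. beat-IIIc, which was not called, had 44.2 and 16.97 CPM in neurons, against 19.8 and 62.6 CPM in glia, overlapping between cell types. Without neuron replicate 2, 9 dpr and 6 beat genes were higher. side, a binding partner of beat proteins, had 212 and 122 CPM in neurons, against 0.165 and 0 CPM in glia, and its glia read gave a ratio of 1966-fold (95% counting interval 352 to 77719). Of 6 kekkon genes, leucine-rich repeat proteins, 2 were higher in neurons (33.3%), or 4 with spike-in scaling. kek6 had 306 and 592 CPM in neurons, against 1.15 and 11.99 CPM in glia (log2 change 6.08 ± 1.12, adjusted p = 0.00714), and kek3 lost its call without neuron replicate 2 (adjusted p = 0.0532).

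Guidance and adhesion genes went both ways. Of 30 tested, 12 were higher in neurons (40%, against 9.37% of all tested genes) and 5 lower (16.7%, against 10.8%). With spike-in scaling 23 were higher and 2 lower. robo3, a slit receptor, had 271 and 466 CPM in neurons, against 0.165 and 0.146 CPM in glia, and its 2 glia reads gave a ratio of 2576-fold (95% counting interval 713 to 21278). The ligand sli, which midline glia secrete in the embryo, had 388 and 464 CPM in neurons, against 1843 and 2360.3 CPM in glia (log2 change -2.30 ± 0.32, adjusted p = 0.00201). robo3 and sli were thus called in opposite directions, although sli kept clear levels in neurons. The slit receptors robo and lea, also in the list, are not described here. NetB, a netrin, had 384 and 722 CPM in neurons, against 38.4 and 75.9 CPM in glia (log2 change 3.27 ± 0.58, adjusted p = 0.00629). Its receptor fra had 239 and 302 CPM in neurons, against 269.9 and 164 CPM in glia (adjusted p = 0.573). CadN, N-cadherin, had 1203 and 1768 CPM in neurons, against 138 and 168 CPM in glia (log2 change 3.28 ± 0.39, adjusted p = 9.11e-04). fra overlapped between the cell types, and CadN did not. Lower in neurons were Sema-5c, with 0 CPM in both neuron libraries, against 237 and 58.2 CPM in glia, at least 504-fold, Nrt (neurotactin) and Fas3. Nrt had 59.4 and 34.4 CPM in neurons, against 672 and 686 CPM in glia (log2 change -3.86 ± 0.40, adjusted p = 4.41e-04). Fas3 had 52.8 and 42.9 CPM in neurons, against 472 and 270.4 CPM in glia (log2 change -2.96 ± 0.48, adjusted p = 0.00398). These 3 were clear in both glia libraries.

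The Dscam genes, receptors of self-avoidance, also divided. Dscam had 768 and 830.3 CPM in neurons, against 2102 and 2375 CPM in glia (log2 change -1.49 ± 0.33, adjusted p = 0.0145), a change that turned to 0.27 with spike-in scaling. Dscam3 had 56.9 and 239.7 CPM in neurons, against 0 CPM in both glia libraries, at least 763-fold higher in neurons. Dscam2 had 617 and 1134 CPM in neurons, against 0.66 and 43.9 CPM in glia (log2 change 5.29 ± 1.40, adjusted p = 0.0305). Dscam3 and Dscam2 were high in both neuron libraries, most in replicate 2. The calls of Dscam and Dscam2 were lost without neuron replicate 2 (adjusted p = 0.0616 and 0.0944) or 1 (0.0612 and 0.0501), and that of Dscam without glia replicate 2 (0.054). Without neuron replicate 2, 7 of the guidance and adhesion genes were higher in neurons.

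Of 18 axonal cytoskeleton and transport genes 4 were higher in neurons (22.2%, against 9.37% of all tested genes) and 1 lower, or 13 higher and 1 lower with spike-in scaling. The number higher was 2 in a fit without the neuroblasts, and 2 were lower without neuron replicate 2. futsch, which binds axonal microtubules, had 4729 and 4188 CPM in neurons, against 68.3 and 6.14 CPM in glia (log2 change 6.91 ± 1.12, adjusted p = 0.004). Ank2, a neuronal ankyrin, had 4786 and 4125 CPM in neurons, against 7.42 and 111 CPM in glia (log2 change 6.23 ± 1.20, adjusted p = 0.00889). unc-104, the kinesin of synaptic vesicle precursors, had 2404 and 2602 CPM in neurons, against 29.4 and 300.4 CPM in glia (log2 change 3.92 ± 0.87, adjusted p = 0.0157), and its call was lost without neuron replicate 2 (adjusted p = 0.0528). All 3 were high in both neuron libraries, and their glia values differed widely, with more futsch in replicate 1 and more Ank2 and unc-104 in replicate 2. The general kinesin Khc had 62.97 and 106 CPM in neurons, against 216 and 193 CPM in glia (adjusted p = 0.067). alphaTub84B, the main alpha-tubulin, had 2074 and 1814 CPM in neurons, against 2986 and 2579 CPM in glia (adjusted p = 0.0744). betaTub60D, a beta-tubulin prominent in embryonic mesoderm, was the member lower in neurons, with 0.829 and 0.713 CPM in neurons, against 911 and 278 CPM in glia (log2 change -9.58 ± 0.76, adjusted p = 1.49e-04). It stood at 126 ± 3.09 CPM in pooled neuroblasts (mean ± SD, n = 3). The general betaTub56D had 1898 and 1088 CPM in neurons, against 1441 and 1176 CPM in glia, overlapping between cell types.

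Of 15 RNA-binding proteins listed for neurons 5 were higher in neurons (33.3%, against 9.37% of all tested genes). Another 3 were lower (20%, against 10.8%). With spike-in scaling 11 were higher and 1 lower. fne, a relative of elav, had 1306 and 1626 CPM in neurons, against 4.62 and 1.9 CPM in glia (log2 change 8.81 ± 0.70, adjusted p = 1.49e-04). orb2, a translational regulator in memory, had 167 and 267 CPM in neurons, against 4.45 and 16.4 CPM in glia (log2 change 4.38 ± 0.83, adjusted p = 0.00823). The Bruno family split: bru-3 had 1146 and 2109 CPM in neurons, against 45.8 and 8.34 CPM in glia (log2 change 5.91 ± 1.03, adjusted p = 0.00568). bru-2 had 3.59 and 0.143 CPM in neurons, against 99.1 and 124 CPM in glia (log2 change -5.97 ± 1.47, adjusted p = 0.0235), a call lost without glia replicate 2 (adjusted p = 0.0551), when 1 gene of the group was lower in neurons. Syp (syncrip), a timer of neuroblast programmes, had 83.1 and 119.8 CPM in neurons, against 1955 and 2383 CPM in glia (log2 change -4.42 ± 0.26, adjusted p = 4.06e-05). In pooled neuroblasts Syp stood at 14390.1 ± 2126 CPM (mean ± SD, n = 3), above all 4 libraries. pAbp, the poly(A)-binding protein, had 1020.3 and 1152 CPM in neurons, against 1915 and 1656 CPM in glia (adjusted p = 0.0433), a call lost when any 1 of the 4 libraries was left out (adjusted p = 0.0604 to 0.141), with a log2 change that turned to 1.06 under spike-in scaling.

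Of 24 transcription factors listed for neurons 9 were higher in neurons (37.5%, against 9.37% of all tested genes). Another 3 were lower (12.5%), a share near the 10.8% of all tested genes. With spike-in scaling 12 were higher and 1 lower. scrt (scratch), a zinc-finger factor of neurons, had 1563 and 2063 CPM in neurons, against 2.47 and 10.5 CPM in glia (log2 change 8.11 ± 1.09, adjusted p = 0.00166). onecut had 575 and 440.2 CPM in neurons, against 6.6 and 2.19 CPM in glia (log2 change 6.85 ± 0.63, adjusted p = 2.59e-04). acj6, a POU factor of olfactory and visual neurons, had 34.5 and 41.1 CPM in neurons, against 0.33 and 0.146 CPM in glia, and its 3 glia reads gave a ratio of 167-fold (95% counting interval 56.8 to 813). These were even between the neuron libraries. vvl, another POU factor, had 171 and 244 CPM in neurons, against 36.8 and 28.1 CPM in glia (log2 change 2.68 ± 0.49, adjusted p = 0.00672). chinmo, which marks neurons by birth time, had 1861 and 1755 CPM in neurons, against 521 and 370.3 CPM in glia (log2 change 2.02 ± 0.31, adjusted p = 0.003). Both kept clear levels in glia. eve, of a few neuron types, had 25.4 and 0 CPM in neurons, against 0 CPM in both glia libraries (adjusted p = 0.133) and was seen in neuron replicate 1 alone. pros (prospero) was lower in neurons, with 64.6 and 8.41 CPM in neurons, against 1081 and 1232 CPM in glia (log2 change -4.997 ± 0.81, adjusted p = 0.00403). br (broad) had 1577 and 1806 CPM in neurons, against 4055 and 6257 CPM in glia (log2 change -1.61 ± 0.25, adjusted p = 0.00314), and zfh2 had 1294 and 1719 CPM in neurons, against 3346 and 3113 CPM in glia (log2 change -1.10 ± 0.28, adjusted p = 0.0259). With spike-in scaling the log2 changes of br and zfh2 turned to 0.11 and 0.66, and the call of zfh2 was lost when any 1 of the 4 libraries was left out (adjusted p = 0.0509 to 0.108).

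Of 13 transcription factors listed for glia 8 were lower in neurons (61.5%, against 10.8% of all tested genes). Only 1 was higher (7.69%, near the 9.37% of all tested genes). With spike-in scaling 2 were higher and 2 lower. Without glia replicate 1 or without glia replicate 2, 5 were lower, and 2 were higher without neuron replicate 2 or glia replicate 1. pnt, an ETS factor downstream of receptor tyrosine kinases, had 1.93 and 7.27 CPM in neurons, against 237 and 241 CPM in glia (log2 change -5.65 ± 0.71, adjusted p = 0.00122). apt had 34.2 and 14.3 CPM in neurons, against 119 and 386 CPM in glia (log2 change -3.39 ± 0.62, adjusted p = 0.00693). NFAT, the calcineurin-responsive factor, had 85.9 and 109 CPM in neurons, against 419.8 and 882 CPM in glia (log2 change -2.74 ± 0.45, adjusted p = 0.00421). All 3 were higher in both glia libraries, with apt and NFAT uneven between them. SoxN, a Sox factor of neural cells, had 58.8 and 145 CPM in neurons, against 549 and 640.5 CPM in glia (log2 change -2.54 ± 0.45, adjusted p = 0.00588). gcm, which starts the glial fate in embryos, had 0 and 0.428 CPM in neurons, against 0 and 0.292 CPM in glia. gcm was thus near 0 in the cell type it specifies, at this stage. D (Dichaete), a Sox factor, was the member higher in neurons, with 34.8 and 15.5 CPM in neurons, against 5.11 and 3.51 CPM in glia (log2 change 2.54 ± 0.68, adjusted p = 0.0307), and its call was lost without neuron replicate 1 (adjusted p = 0.0543) or glia replicate 2 (0.0667). The list also held gl (glass), an eye gene, with 0 and 23.2 CPM in neurons, against 5.77 and 0.146 CPM in glia.

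Markers of several glial subtypes were present in the glia pools. moody, a receptor of barrier glia, had 2.76 and 1.43 CPM in neurons, against 239 and 476 CPM in glia (log2 change -7.45 ± 0.74, adjusted p = 3.61e-04). loco, its RGS regulator, had 1.1 and 0.428 CPM in neurons, against 260.2 and 284 CPM in glia (log2 change -8.55 ± 0.74, adjusted p = 1.98e-04). Mdr65, an efflux pump of the barrier, had 0 and 1.85 CPM in neurons, against 238 and 1002 CPM in glia (log2 change -9.15 ± 1.22, adjusted p = 0.00156). All 3 were near 0 in neurons. wrapper, a marker of cortex glia around cell bodies, had 1.1 and 1.28 CPM in neurons, against 359 and 359 CPM in glia (log2 change -8.20 ± 0.61, adjusted p = 9.30e-05). alrm, of astrocyte-like glia, had 4.97 and 2.28 CPM in neurons, against 360.1 and 155 CPM in glia (log2 change -6.17 ± 1.09, adjusted p = 0.00599). Between the glia libraries, alrm, Eaat1, Gs2 and CG1732 had more CPM in replicate 1, and Mdr65, moody and Tret1-1 had more in replicate 2. The subtype lists were not uniform: e, listed for astrocyte-like glia, had more in replicate 2, and Gli, listed for barrier glia, more in replicate 1. wrapper was even. The number of cells of each subtype in a pool is not given.

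Barrier and septate junction genes were called in 9 of 21 cases, 7 lower in neurons (33.3%, against 10.8% of all tested genes) and 2 higher (9.52%, against 9.37%), or 4 higher and 5 lower with spike-in scaling. Lac (lachesin) had 4.7 and 22.1 CPM in neurons, against 847 and 964 CPM in glia (log2 change -6.05 ± 0.72, adjusted p = 9.22e-04). cora (coracle) had 214 and 266 CPM in neurons, against 1256 and 1636 CPM in glia (log2 change -2.59 ± 0.34, adjusted p = 0.00147). Nrx-IV, a core septate protein, had 105 and 152 CPM in neurons, against 311 and 338 CPM in glia (log2 change -1.34 ± 0.39, adjusted p = 0.0401), a change that turned to 0.40 with spike-in scaling. The call of Nrx-IV was lost without neuron replicate 1 (adjusted p = 0.109), glia replicate 1 (0.0548) or glia replicate 2 (0.0709). Its relative Nrx-1, the neurexin of synapses, had 1271 and 1668 CPM in neurons, against 3.79 and 2.63 CPM in glia (log2 change 8.83 ± 0.72, adjusted p = 1.49e-04), so the 2 neurexins lay on opposite sides. Both genes higher in neurons have wide roles outside junctions. G-oalpha47A, a G protein alpha subunit, had 1906 and 1761 CPM in neurons, against 696 and 551 CPM in glia (log2 change 1.56 ± 0.25, adjusted p = 0.00398). Atpalpha, the sodium pump, had 9104 and 7267 CPM in neurons, against 3586 and 4643 CPM in glia (log2 change 0.99 ± 0.22, adjusted p = 0.0155), a call lost without glia replicate 1 (adjusted p = 0.0726), when 1 gene of the group was higher.

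Of 5 tested innexins, the proteins of gap junctions, 1 was higher in neurons (20%, against 9.37% of all tested genes) and 2 lower (40%, against 10.8%). shakB, the innexin of electrical synapses, had 544 and 746 CPM in neurons, against 0 and 0.146 CPM in glia, and its glia read gave a ratio of 8738-fold (95% counting interval 1568 to 345186). Inx2, the partner of ogre in glial channels, had 6.08 and 1.71 CPM in neurons, against 480.4 and 749 CPM in glia (log2 change -7.36 ± 0.67, adjusted p = 2.41e-04). Per length, shakB had 65.5 and 120.0 TPM in neurons. In glia ogre had 576 and 528 TPM and Inx2 189 and 309 TPM, with ogre above Inx2 in each library. Inx3 had 6.08 and 31.9 CPM in neurons, against 43.5 and 56.3 CPM in glia (adjusted p = 0.203), and Inx7 had 0 and 2.42 CPM in neurons, against 0.33 and 0.146 CPM in glia (adjusted p = 0.446). zpg, Inx5 and Inx6 had too few reads to test.

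Of 13 engulfment genes 5 were lower in neurons (38.5%, against 10.8% of all tested genes) and none higher, or 2 higher and 1 lower with spike-in scaling, and 1 was higher without neuron replicate 1. drpr (draper), the receptor that recognises dying neurites, had 122 and 129 CPM in neurons, against 388 and 636 CPM in glia (log2 change -2.02 ± 0.37, adjusted p = 0.00693). Its adaptor ced-6 had 7.73 and 1.57 CPM in neurons, against 144 and 119 CPM in glia (log2 change -4.84 ± 1.000, adjusted p = 0.0118). mbc, which activates Rac during engulfment, had 16.3 and 22.9 CPM in neurons, against 800.4 and 311 CPM in glia (log2 change -4.82 ± 0.58, adjusted p = 0.00101). drpr kept a clear level in both neuron libraries, whereas ced-6 was low there. Of 17 matrix genes 5 were lower in neurons (29.4%) and none higher, or 1 higher and 4 lower with spike-in scaling. LanB1, a laminin chain, had 7.18 and 0.57 CPM in neurons, against 801 and 543 CPM in glia (log2 change -7.52 ± 1.06, adjusted p = 0.00204). LanB2, another, had 1.1 and 0.285 CPM in neurons, against 196 and 215 CPM in glia (log2 change -8.31 ± 0.99, adjusted p = 9.11e-04). trol, perlecan, had 31.8 and 81.5 CPM in neurons, against 798 and 1602 CPM in glia (log2 change -4.40 ± 0.68, adjusted p = 0.00316). The laminins were close to 0 in neurons and trol was not. Mmp1, a matrix metalloprotease, had 14.9 and 58.5 CPM in neurons, against 368 and 834 CPM in glia (log2 change -4.03 ± 0.75, adjusted p = 0.00751). vkg, a collagen IV chain, had 0 and 1.28 CPM in neurons, against 133 and 39.5 CPM in glia (log2 change -6.89 ± 1.50, adjusted p = 0.0144), a call lost without glia replicate 1 (adjusted p = 0.0578), and Cg25C, the other chain, had 57.2 and 65.6 CPM in neurons, against 384 and 113 CPM in glia (adjusted p = 0.0641).

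Of 14 lipid transport and storage genes 1 was higher in neurons (7.14%, against 9.37% of all tested genes) and 5 lower (35.7%, against 10.8%). Rfabg, the apolipophorin precursor that carries lipid in haemolymph, had 3.31 and 24.9 CPM in neurons, against 1976 and 6503 CPM in glia (log2 change -8.20 ± 1.02, adjusted p = 0.0011). Lsd-2, a perilipin that coats lipid droplets, had 1.66 and 2.71 CPM in neurons, against 1259 and 1732 CPM in glia (log2 change -9.37 ± 0.67, adjusted p = 9.30e-05). fabp, a fatty acid-binding protein, had 93.6 and 59.6 CPM in neurons, against 1488 and 1266 CPM in glia (log2 change -4.17 ± 0.35, adjusted p = 1.49e-04). Rfabg and Lsd-2 were among the abundant genes of glia and near 0 in neurons. The fat body is the main source of Rfabg in the larva, and its 6 listed genes summed to 0.276 and 0 CPM in neurons, against 15.2 and 5.56 CPM in glia; their part in this value was not tested. GLaz (glial Lazarillo), an apolipoprotein D, had 0.276 and 0 CPM in neurons, against 44.9 and 30.3 CPM in glia, and its neuron read gave a ratio of glia over neurons of 395-fold (95% counting interval 70.5 to 15628). NLaz, its neuronal namesake, had 2.49 and 0 CPM in neurons, against 0.66 and 51.9 CPM in glia and was not called (adjusted p = 0.206). LpR1, a lipophorin receptor, was the member higher in neurons, with 193 and 324 CPM in neurons, against 0.989 and 0.292 CPM in glia (log2 change 8.64 ± 1.24, adjusted p = 0.00222). LpR2, its relative, had 103.6 and 125 CPM in neurons, against 37.1 and 164 CPM in glia (adjusted p = 0.875), overlapping between cell types.

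Genes of sugar use were called in both directions. Treh, trehalase, which cleaves the blood sugar trehalose, had 14.9 and 13.97 CPM in neurons, against 902 and 477 CPM in glia (log2 change -5.58 ± 0.49, adjusted p = 2.10e-04). Tret1-1, the trehalose transporter of barrier glia, had 25.1 and 15.1 CPM in neurons, against 351 and 573 CPM in glia (log2 change -4.53 ± 0.51, adjusted p = 6.85e-04). Glut1, a glucose transporter, had 941 and 879 CPM in neurons, against 75.03 and 83.8 CPM in glia (log2 change 3.52 ± 0.39, adjusted p = 6.28e-04). Treh and Tret1-1 were thus lower in neurons and Glut1 higher. Tret1-2, a second trehalose transporter, had 14.9 and 5.84 CPM in neurons, against 8.74 and 72.1 CPM in glia (adjusted p = 0.252), and Tps1, which makes trehalose, had 0.829 and 0 CPM in neurons, against 0.33 and 2.92 CPM in glia, both overlapping between cell types. Sln, a monocarboxylate transporter, had 105 and 114 CPM in neurons, against 2.47 and 4.68 CPM in glia (log2 change 4.92 ± 0.97, adjusted p = 0.00956). GlyP, glycogen phosphorylase, had 703 and 589.7 CPM in neurons, against 279 and 278 CPM in glia (log2 change 1.22 ± 0.29, adjusted p = 0.0201). Of 12 tested genes of transport and storage Treh, Tret1-1, Glut1, Sln and GlyP were called. These were 3 higher (25%, against 9.37% of all tested genes) and 2 lower (16.7%, against 10.8%). Spike-in scaling gave 5 higher and 2 lower. Of 12 glycolytic genes 8 were higher in neurons (66.7%, against 9.37% of all tested genes) and none lower, with a median log2 change of 2.38. Ald, aldolase, had 4582 and 4411 CPM in neurons, against 229.5 and 423 CPM in glia (log2 change 3.78 ± 0.31, adjusted p = 1.57e-04). PyK, pyruvate kinase, had 741 and 606 CPM in neurons, against 104.4 and 82.3 CPM in glia (log2 change 2.85 ± 0.35, adjusted p = 0.00107). ImpL3, lactate dehydrogenase, had 702 and 550.3 CPM in neurons, against 4.95 and 10.8 CPM in glia (log2 change 6.31 ± 0.61, adjusted p = 3.11e-04), the widest gap of the 12. Hex-A, Pgi, Pfk and Pgk were not called. Hex-A, hexokinase, had 889.9 and 814 CPM in neurons, against 280.3 and 800.5 CPM in glia (adjusted p = 0.308). Pfk, phosphofructokinase, had 183 and 113 CPM in neurons, against 130.4 and 150.5 CPM in glia (adjusted p = 0.919), overlapping between cell types. Pgi, the isomerase between them, had 594 and 336 CPM in neurons, against 159.5 and 422 CPM in glia (adjusted p = 0.344), also overlapping, and Pgk, the kinase of a later step, had 260.5 and 169 CPM in neurons, against 8.57 and 74.3 CPM in glia (adjusted p = 0.0788).

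**Figure D5:**
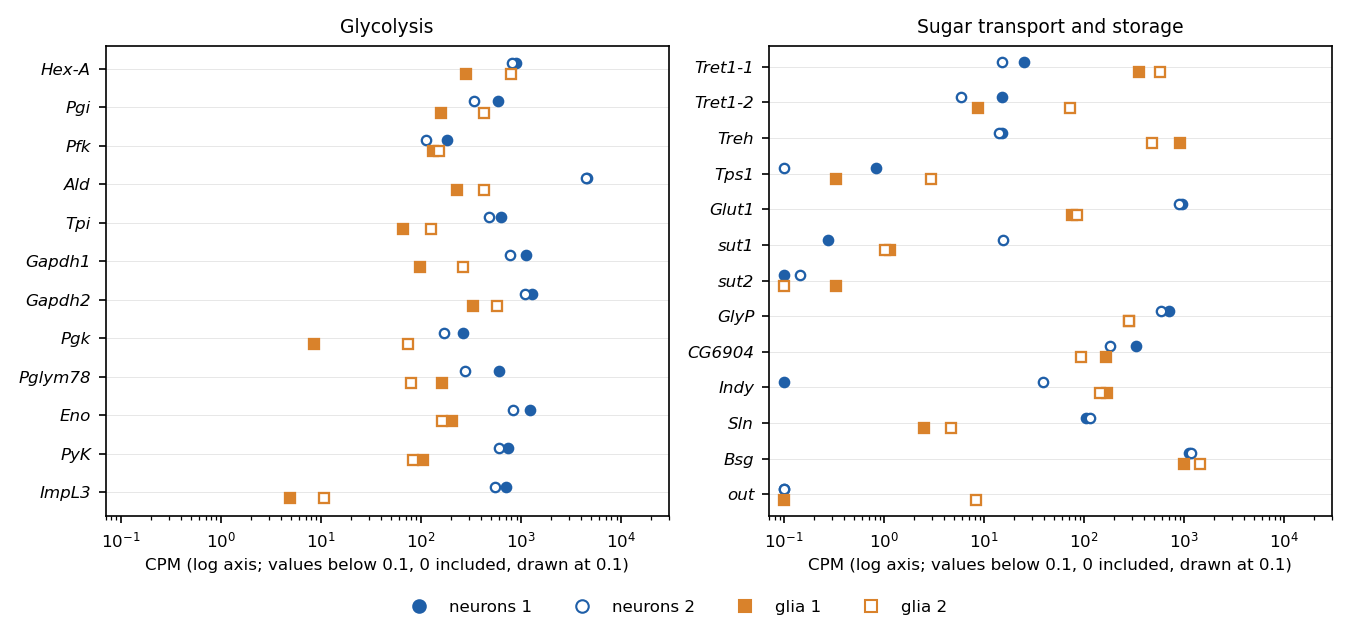
CPM of the 12 glycolytic genes (left) and of 13 genes of sugar transport and storage (right) in each library, on a log axis on which values below 0.1 are drawn at 0.1, with circles for neurons and squares for glia, filled for replicate 1 and open for replicate 2. ImpL3, Ald, Glut1 and Sln have more CPM in both neuron libraries and Treh and Tret1-1 in both glia libraries, while Pfk and Bsg overlap.

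Of 25 nuclear genes of oxidative phosphorylation 7 were higher in neurons (28%) and none lower, with a median log2 change of 1.31. CoVb, a cytochrome oxidase subunit, had 92.8 and 101 CPM in neurons, against 21.6 and 17.3 CPM in glia (log2 change 2.32 ± 0.49, adjusted p = 0.0124). blw, the ATP synthase alpha subunit, had 946 and 771 CPM in neurons, against 563 and 752 CPM in glia (adjusted p = 0.304). The count was 23 with spike-in scaling, 0 in a fit without the neuroblasts and 4 without neuron replicate 1. Of 83 ribosomal protein genes 14 were higher in neurons (16.9%, against 9.37% of all tested genes) and 2 lower, with a median of 0.30. The number higher was 77 with spike-in scaling, 0 without the neuroblasts and 5 to 9 when 1 library was left out.

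Of 22 Notch pathway genes 10 were lower in neurons (45.45%, against 10.8% of all tested genes) and none higher. Their median log2 change was -2.46. The pathway maintains neuroblasts and sets apart sibling neurons. E(spl)mbeta-HLH, a target repressor, had 0 CPM in both neuron libraries, against 342 and 531 CPM in glia, at least 1567-fold lower in neurons. E(spl)m3-HLH had 0 CPM in both neuron libraries, against 60.7 and 140.0 CPM in glia, at least 364-fold lower. E(spl)mgamma-HLH, the member typical of neuroblasts, had 6.91 and 7.84 CPM in neurons, against 74.2 and 9.51 CPM in glia (adjusted p = 0.0568). It stood at 468 ± 101 CPM in pooled neuroblasts (mean ± SD, n = 3). In glia it was high in replicate 1, the glia library with the larger sum of neuroblast markers. fng, a glycosyltransferase that tunes the receptor, had 0.276 and 1.14 CPM in neurons, against 197 and 233 CPM in glia (log2 change -8.09 ± 1.24, adjusted p = 0.00311). kuz, the protease that cuts it, had 162 and 214 CPM in neurons, against 697 and 908 CPM in glia (log2 change -2.09 ± 0.40, adjusted p = 0.00855). N, the receptor, had 7.18 and 84.3 CPM in neurons, against 457 and 370.0 CPM in glia (log2 change -3.17 ± 0.87, adjusted p = 0.0339), and its call was lost without glia replicate 1 or 2 (adjusted p = 0.0933 and 0.0731). Of the genes not called, Dl, the ligand, had 21.5 and 0.428 CPM in neurons, against 32.5 and 159 CPM in glia, and mam, the co-activator, had 361 and 505 CPM in neurons, against 258 and 172 CPM in glia. Neither overlapped between the cell types. The fit without neuroblasts had 4 members lower, and there were 1 higher and 5 lower with spike-in scaling.

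Of 16 genes of activity and stress 2 were higher in neurons (12.5%), a share near the 9.37% of all tested genes. Another 7 were lower (43.8%, against 10.8% of all tested genes). With spike-in scaling 4 were higher and 2 lower. Hr38, a nuclear receptor induced by neuronal activity, had 999.6 and 1008 CPM in neurons, against 1.32 and 0 CPM in glia (log2 change 10.58 ± 1.29, adjusted p = 0.00103). sr (stripe), another activity-induced factor, had 224 and 544 CPM in neurons, against 0 CPM in both glia libraries, at least 1870.2-fold higher. kay, the Fos gene, had 137 and 289 CPM in neurons, against 733 and 968 CPM in glia (log2 change -1.997 ± 0.60, adjusted p = 0.0462), a call lost when any 1 of the 4 libraries was left out (adjusted p = 0.0679 to 0.173). Hr38 and sr were thus at or near 0 in glia, where kay was high. Hsp83, the Hsp90 gene, had 472 and 501 CPM in neurons, against 3104 and 3343 CPM in glia (log2 change -2.73 ± 0.22, adjusted p = 1.49e-04). Hsp27, a small heat shock protein, had 132 and 55.7 CPM in neurons, against 752 and 1333 CPM in glia (log2 change -3.47 ± 0.48, adjusted p = 0.00192). The strictly heat-induced Hsp70Ba had 0.276 and 0.428 CPM in neurons, against 1.15 and 4.09 CPM in glia. Both chaperones were thus lower in neurons while Hsp70Ba was near 0 in both cell types. The number lower was 3 without neuron replicate 1 or 2 and 4 without glia replicate 2. Both cell types went through the same protease digestion, per the labels, and the part of handling in these values was not tested.

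Ecdysone genes, which at this stage respond to the hormone that starts metamorphosis, were called in 2 of 12 cases, Hr38 higher in neurons and br lower, each a share of 8.33%, near that of all tested genes. The group had 4 higher and none lower with spike-in scaling, and 2 higher without glia replicate 1. The receptor EcR had 229 and 419 CPM in neurons, against 249.7 and 337 CPM in glia (adjusted p = 0.848). Its partner usp had 83.4 and 28.7 CPM in neurons, against 20.9 and 90.5 CPM in glia (adjusted p = 1). The early gene Eip75B had 772 and 1211 CPM in neurons, against 919.7 and 1348 CPM in glia (adjusted p = 0.755). All 3 overlapped between the cell types.

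Some genes named for other tissues were prominent in glia. sls (sallimus), a titin-like protein of muscle, had 0 and 0.285 CPM in neurons, against 677 and 679 CPM in glia, and its 2 neuron reads gave a ratio of glia over neurons of 3606-fold (95% counting interval 998 to 29780.3). The glia libraries were even, and pooled neuroblasts had 16.2 ± 12.2 CPM (mean ± SD, n = 3). Mhc, myosin heavy chain, had 0 CPM in both neuron libraries, against 20.4 and 9.51 CPM in glia, at least 51.9-fold lower in neurons, a call lost without neuron replicate 2 (adjusted p = 0.0516). Some defining muscle genes were near 0: wupA had no reads in the 4 libraries, and Mlc1 and Act57B had at most 0.989 and 0.439 CPM. bt, another titin-like muscle protein, had 11.9 and 0 CPM in neurons, against 67.6 and 0.585 CPM in glia. serp, a chitin deacetylase of trachea, had 0 and 0.713 CPM in neurons, against 127 and 9.51 CPM in glia (adjusted p = 0.0253), most of it in glia replicate 1, and its call was lost without that library (0.158) or without neuron replicate 1 or 2 (0.0755 and 0.056).

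RNA per cell was estimated as gene reads over spike-in reads, corrected for the volume of spike-in and the number of cells. Relative to the neuron mean, the neuron libraries stood at 1.22 and 0.782 and the glia libraries at 0.235 and 0.315. Neurons thus had 3.58 times the RNA of glia per cell (geometric means), and the libraries did not overlap. The exact permutation test over the 4 libraries gave a two-sided p of 0.333, the smallest that 2 against 2 libraries allow. Without the correction for spike-in volume the ratio was 1.90. Without CR41602 and CR40677, entries that took 31.9 and 11.8% of gene reads in neurons and 25.6 and 19.8% in glia, it was 3.59.

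Genes higher in neurons had long spans in the deposited dm3 annotation. Their median span was 6398 bp, against 3672.5 bp for genes lower in neurons, 2310 bp for genes not called and 2569 bp for all tested genes. Spans over 20000 bp were held by 24.6% of genes higher in neurons, 7.18% of those lower and 4.49% of those not called. The share over all tested genes was 6.67%, near that of the genes lower in neurons. CG42750 with 115350 bp, klg with 62433 bp and Shab with 49666 bp are examples. On the small chromosome 4, 21 of 81 tested genes were higher in neurons (25.9%) and 6 lower (7.41%), and the median span was 7887 bp. On 2L, 2R, 3L, 3R and X, 8.82 to 10.2% of tested genes were higher. The chromosome 4 genes higher in neurons include unc-13, Caps, Syt7, mGluRA and onecut, and those lower include Rfabg and zfh2.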

How the data were processed

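Whole-number counts of reads per gene, with ERCC rows, were deposited by the authors as a table of the series, and TPM values deposited by the authors, scaled per gene length, came in a second table. The submitters' processing notes name HTSeq 0.6.1p1, the aligners STAR 2.4.0i and Bowtie2 2.1.0, and cutadapt 1.7.1 and CASAVA, with the builds dm3 and mm10 and no order of steps. No source used here gives the strand setting of the counting, so reads of overlapping and antisense genes, and of near-identical copies, are uncertain. Kit amplification makes reads unequal to molecules, and counting intervals and floors cover counting error only.

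Counts of 2 neuron, 2 glia and 3 pooled neuroblast libraries were filtered with filterByExpr, scaled by TMM and tested with edgeR 4.0.16 (glmQLFit, glmQLFTest) in R 4.3.3, with Benjamini-Hochberg adjustment over all 9855 genes tested and a threshold of 0.05. The model had 4 residual degrees of freedom, and the biological coefficient of variation was 0.796. A model of neurons and glia only had 2 and 0.964. The steps were also run on simulated data with less spread between libraries than here. That run therefore does not show how well changes in these data are recovered. Alternatives were RLE and spike-in scaling, no filter or a stricter one of 1 CPM, DESeq2 1.42.0, other sets of libraries, the replicate number as a block, limma 3.58.1 on log2(TPM + 1), CR41602 and CR40677 left out, and each neuron or glia library left out in turn. An RNA-per-cell ratio was computed from spike-in reads.

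The genes named were the 4 markers, the 12 with the widest change in each direction among those with at least 50 CPM and no overlap between groups, the 5 called genes with the most reads in each cell type, and from each of 42 gene lists up to 8 called members, members against the majority and, in lists of up to 12, uncalled members. Uncalled members of longer lists were named for contrast after their values were seen. Comparison and lists were chosen with earlier results of these data known. Of the listed symbols, Sv2, zyd and PPO1 matched no gene of the table. Replicate numbers were not used to pair libraries. A gene with no reads in a group has its fold as a bound from 3 counts over that group, and one with 1 to 3 counts as a ratio with a 95% exact interval.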

Additional observations from a re-analysis of the deposited data

How the results depend on the processing

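The number of calls, 923 higher in neurons and 1061 lower, depended on the scaling, the libraries in the model and the tool. Spike-in scaling gave 2789 higher and 465 lower, DESeq2 1543 and 1808, a model of neurons and glia only 512 and 372, and one of all libraries of the series 1936 and 2682. Leaving out 1 library gave 682 to 947 higher and 738 to 1168 lower, where the lone library left in a group is assumed to vary like the other groups. All 923 genes higher on the TMM scale were also higher with spike-in scaling, and 7 of the genes lower turned to higher. That scaling raised the median log2 change from -0.23 to 1.52, so genes already higher could hardly leave that side. No other alternative called a gene in the opposite direction. Deviations from group means of neuron or glia libraries and same-numbered neuroblast pools, taken at another stage, correlated at -0.0191 to -0.00054. The deviations of neuron replicate 1 and glia replicate 1, the pair that bears on this comparison, correlated at -0.00975 and gave no sign of pairing. With 2 libraries a group this does not settle whether some shared a preparation. With the replicate block 598 genes were higher and 596 lower, of which 578 and 583 were also called without it.

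Of the 185 named genes that were called, 130 kept their call in every alternative. With spike-in scaling the log2 change turned to 0.27 for Dscam, 1.20 for Ef1alpha48D, 0.40 for Nrx-IV, 0.11 for br, 1.06 for pAbp, 0.077 for shot and 0.66 for zfh2. Of genes not called, it turned to 1.64 for Bsg, 1.50 for Eip75B, 1.29 for alphaTub84B, 1.32 for babo and 1.39 for nrv2. The log2 change of itp, neurons against glia, was -8.19 without neuron replicate 1 and 1.101 without neuron replicate 2. By group, spike-in scaling left 2 glial factors, 1 engulfment gene and 2 stress genes lower in neurons and raised guidance genes to 23 and axonal genes to 13 higher, and the model of neurons and glia only had 3 peptide genes higher and 3 engulfment genes lower. The cause of these moves was not tested.

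With 2 libraries a group, no permutation test of a single value can go below 0.333, and 3611 genes had an unadjusted p below 0.05 against 1984 called. Motifs in promoters were not examined, since no sequence of the build dm3 was used.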

Other observations

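Genes outside the listed groups, chosen after their values were seen, showed signalling systems in which the ligands and receptors were not equally shared. Among the TGF-beta ligands, Actbeta (activin) had 267 and 69.3 CPM in neurons, against 2.64 and 6 CPM in glia (log2 change 5.28 ± 1.14, adjusted p = 0.0139), a call lost without neuron replicate 1 (adjusted p = 0.0556) or glia replicate 1 (0.0667). myo (myoglianin), a ligand known from glia that helps mushroom body neurons remodel, had 0 CPM in both neuron libraries, against 88.5 and 88.05 CPM in glia, at least 313-fold lower in neurons. daw (dawdle), a ligand of the same branch, had 0.829 and 0 CPM in neurons, against 145 and 524 CPM in glia, and its neuron reads gave a ratio of glia over neurons of 1227-fold (95% counting interval 419.5 to 5951). The ligands thus lay on both sides. Their receptor babo had 262 and 421 CPM in neurons, against 406 and 489 CPM in glia (adjusted p = 0.477), overlapping between cell types, and tkv, a BMP receptor, had 24.9 and 21.5 CPM in neurons, against 85.3 and 276 CPM in glia (log2 change -2.96 ± 0.65, adjusted p = 0.0149), a call lost without neuron replicate 2 (adjusted p = 0.0682). In the FGF pathway the ligand ths (thisbe) had 222 and 182 CPM in neurons, against 0 and 0.146 CPM in glia, and its glia read gave a ratio of 2527-fold (95% counting interval 453 to 99856). The receptor htl (heartless) had 0 CPM in both neuron libraries, against 34.8 and 145 CPM in glia, at least 331-fold lower in neurons. stumps, the adaptor of the receptor, had 0 and 1.85 CPM in neurons, against 365 and 320.0 CPM in glia (log2 change -8.32 ± 1.23, adjusted p = 0.00265). The other ligand, pyr (pyramus), had 40.3 and 2.71 CPM in neurons, against 34.8 and 173 CPM in glia (adjusted p = 0.19), overlapping between cell types.

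Families of secreted and detoxifying proteins were also counted. Of 5 Idgf genes 4 were lower in neurons and none higher. Of 22 tested glutathione S-transferase genes 6 were lower in neurons and none higher, and of 43 tested cytochrome P450 genes 3 were higher and 6 lower, against 9.37 and 10.8% of all tested genes. GstS1, the sigma-class enzyme, had 0 and 19.1 CPM in neurons, against 507 and 326 CPM in glia (log2 change -5.40 ± 1.40, adjusted p = 0.0283), a call lost without glia replicate 1 or 2 (adjusted p = 0.0757 and 0.0509). GstE12, of the epsilon class, had 1.1 and 1.28 CPM in neurons, against 85.9 and 40.7 CPM in glia (log2 change -5.70 ± 1.22, adjusted p = 0.0131), a call lost without neuron replicate 2 (adjusted p = 0.0522). Noncoding genes included CR31451, with 1153 and 942 CPM in neurons, against 44.5 and 20.8 CPM in glia (log2 change 5.004 ± 0.69, adjusted p = 0.00188). CR43283, known as cherub in neuroblasts, had 95.8 and 37.8 CPM in neurons, against 3678 and 2856 CPM in glia (log2 change -5.62 ± 0.45, adjusted p = 1.49e-04). It stood at 134833 ± 27900.5 CPM in pooled neuroblasts (mean ± SD, n = 3), and the part of neuroblast RNA in the glia value was not tested. CR40469 had 38.9 and 38.1 CPM in neurons, against 312 and 313 CPM in glia (log2 change -3.02 ± 0.37, adjusted p = 9.83e-04). On chromosome 4, CaMKII, the calcium-dependent kinase of synaptic plasticity, had 749 and 689 CPM in neurons, against 117 and 47.2 CPM in glia (log2 change 3.13 ± 0.45, adjusted p = 0.00226), and ci, the Hedgehog effector, had 30.1 and 13.5 CPM in neurons, against 417 and 529 CPM in glia (log2 change -4.45 ± 0.52, adjusted p = 8.14e-04).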
